A study of Mus musculus with 12 samples.

Results

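The genes described here encode the nuclear subunits of the mitochondrial respiratory chain and of ATP synthase. They were taken by symbol: names starting with Ndufa, Ndufb, Ndufc, Ndufs or Ndufv without the Ndufaf assembly factors, the genes Sdha to Sdhd, and names starting with Uqcr, with Cox4 to Cox8 or with Atp5, leaving out pseudogenes and readthrough genes. This gave 85 of the 19505 genes measured. By complex they divide into 38 genes of complex I, 4 of complex II, 8 of complex III, 18 of complex IV and 17 of complex V. Genes that no named transcript cluster represented were not analysed here.

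The samples were white matter cells selected as astrocytes, which also held transcripts of other cell types. The mice were fed cuprizone, a compound that binds copper and causes the loss of oligodendrocytes and myelin, or were untreated. Some mice lacked GnT-IX, an enzyme that branches sugar chains on brain proteins. All mice were C57BL/6. Wild-type mice were sampled after 0, 3 and 12 weeks on a 0.2% cuprizone diet and GnT-IX-deficient mice after 12 weeks, with 3 biological replicates and 3 arrays in each of the 4 groups. The diet began at 8 to 12 weeks of age, so weeks of diet went with age. After papain digestion of white matter and blocking of Fc receptors, cells were selected with beads against the glutamate transporter GLAST, the product of Slc1a3. The labels do not describe the deficient allele. No GnT-IX-deficient group at 0 weeks was analysed here, so a difference between those mice and untreated wild-type mice mixes genotype, diet and age. Either of a pair of RNA extraction kits was used, with no record here of which sample had which, so kit and group cannot be told apart.

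The respiratory chain sits in the inner mitochondrial membrane. Complexes I and II pass electrons from NADH and succinate to ubiquinone, complex III passes them on to cytochrome c, and complex IV passes them to oxygen. Complexes I, III and IV pump protons out of the matrix, and complex V (ATP synthase) uses their return to make ATP. Cytochrome c oxidase, complex IV, carries copper in its active centres, and a fall in its activity together with giant mitochondria is a classic effect of cuprizone feeding in rodents. Most subunits are encoded in the nucleus and imported. The 13 subunits encoded in mitochondrial DNA had no measured cluster (0 of 13), so their levels are not known from these arrays.

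Values are log2 expression values, and a difference of 1 stands for a doubling. Array medians lay between 5.38 and 5.45, and the correlation across clusters between arrays of a group was 0.975 to 0.985. Mgat5b, which encodes GnT-IX, lay between 5.57 and 6.49 on the 9 wild-type arrays and at 3.70, 4.19 and 4.06 on the GnT-IX-deficient arrays (-1.82 ± 0.21 SE against wild-type at 12 weeks, limma adjusted p = 0.00159). Whether its probes lie in the deleted part is not known. Slc1a3 fell by 1.35 ± 0.27 (SE) after 3 weeks (adjusted p = 0.015) while the intermediate filament gene Gfap, raised in reactive astrocytes, had a rise of 1.97 ± 0.46 (SE, adjusted p = 0.0305). Of 10 astrocyte markers, Gfap was the one higher after 3 weeks and 5 fell, with a median of -0.88. Their mean level went from 8.86 to 9.19 at 0 weeks to 8.27 to 8.57 at 3 weeks, 8.51 to 9.03 at 12 weeks and 8.17 to 8.77 in the deficient mice. Mature oligodendrocyte markers averaged 8.40 to 9.79 over the 12 arrays, so the selected cells also held oligodendrocyte transcripts. Microglia and macrophage markers ran from 5.02 to 5.65 at 0 weeks and from 6.59 to 9.08 in the treated wild-type groups.

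Across all 85 genes the GnT-IX-deficient arrays stood highest. With each gene set against its own 0-week mean and averaged over the 85 genes, the 3 arrays at 0 weeks lay at -0.07, -0.02 and 0.09. The wild-type arrays lay at 0.15, -0.15 and 0.23 after 3 weeks and at 0.02, 0.10 and 0.27 after 12 weeks. The GnT-IX-deficient arrays lay at 0.40, 0.49 and 0.43, each above all 9 wild-type arrays. The wild-type groups overlapped with one another, and replicate 2 of the 3-week group was the lowest of the 12 arrays. The same mean over all genes stayed between -0.01 and 0.02 on every array. In bulk RNA of this kind, fewer cells of a type and less RNA per cell cannot be told apart.

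**Figure D1:**
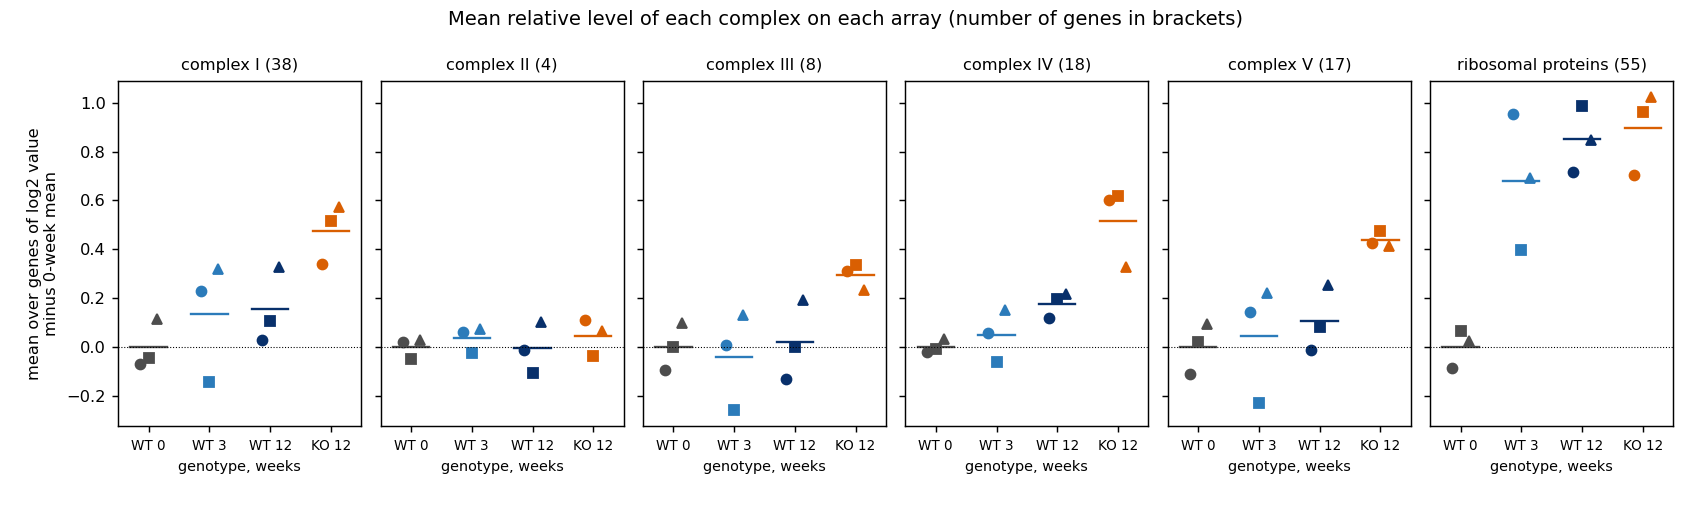
Mean over the genes of each complex, and over 55 cytosolic ribosomal protein genes, of the log2 value minus that gene's 0-week mean, on each of the 12 arrays (WT, wild-type; KO, GnT-IX-deficient; numbers are weeks of cuprizone; circle, square and triangle are replicates 1, 2 and 3; bars are group means). The GnT-IX-deficient arrays lie above all wild-type arrays for complexes I, III, IV and V, and not for complex II or the ribosomal protein genes.

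By complex, the deficient arrays lay above all wild-type arrays for I, III, IV and V and overlapped with them for II. Complex I averaged 0.34, 0.51 and 0.57 on the GnT-IX-deficient arrays, against a highest wild-type value of 0.33. For complex III the deficient arrays lay at 0.31, 0.34 and 0.23 and the highest wild-type array at 0.19. Complex IV reached 0.60, 0.62 and 0.33, with the wild-type arrays ending at 0.22, and complex V reached 0.43, 0.47 and 0.41, with the wild-type arrays ending at 0.25. The complex IV mean includes isoforms found in few tissues. Such isoforms and regulators (9 genes, most of them in complex IV) averaged 0.70, 0.66 and 0.19 on the deficient arrays. On the wild-type arrays they lay between -0.11 and 0.27. Complex II, whose enzyme also works in the citric acid cycle, lay at 0.11, -0.04 and 0.06 on the deficient arrays and between -0.11 and 0.10 on the wild-type ones, so its groups overlapped. It has only 4 genes, and no test compared the complexes with one another.

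**Figure D2:**
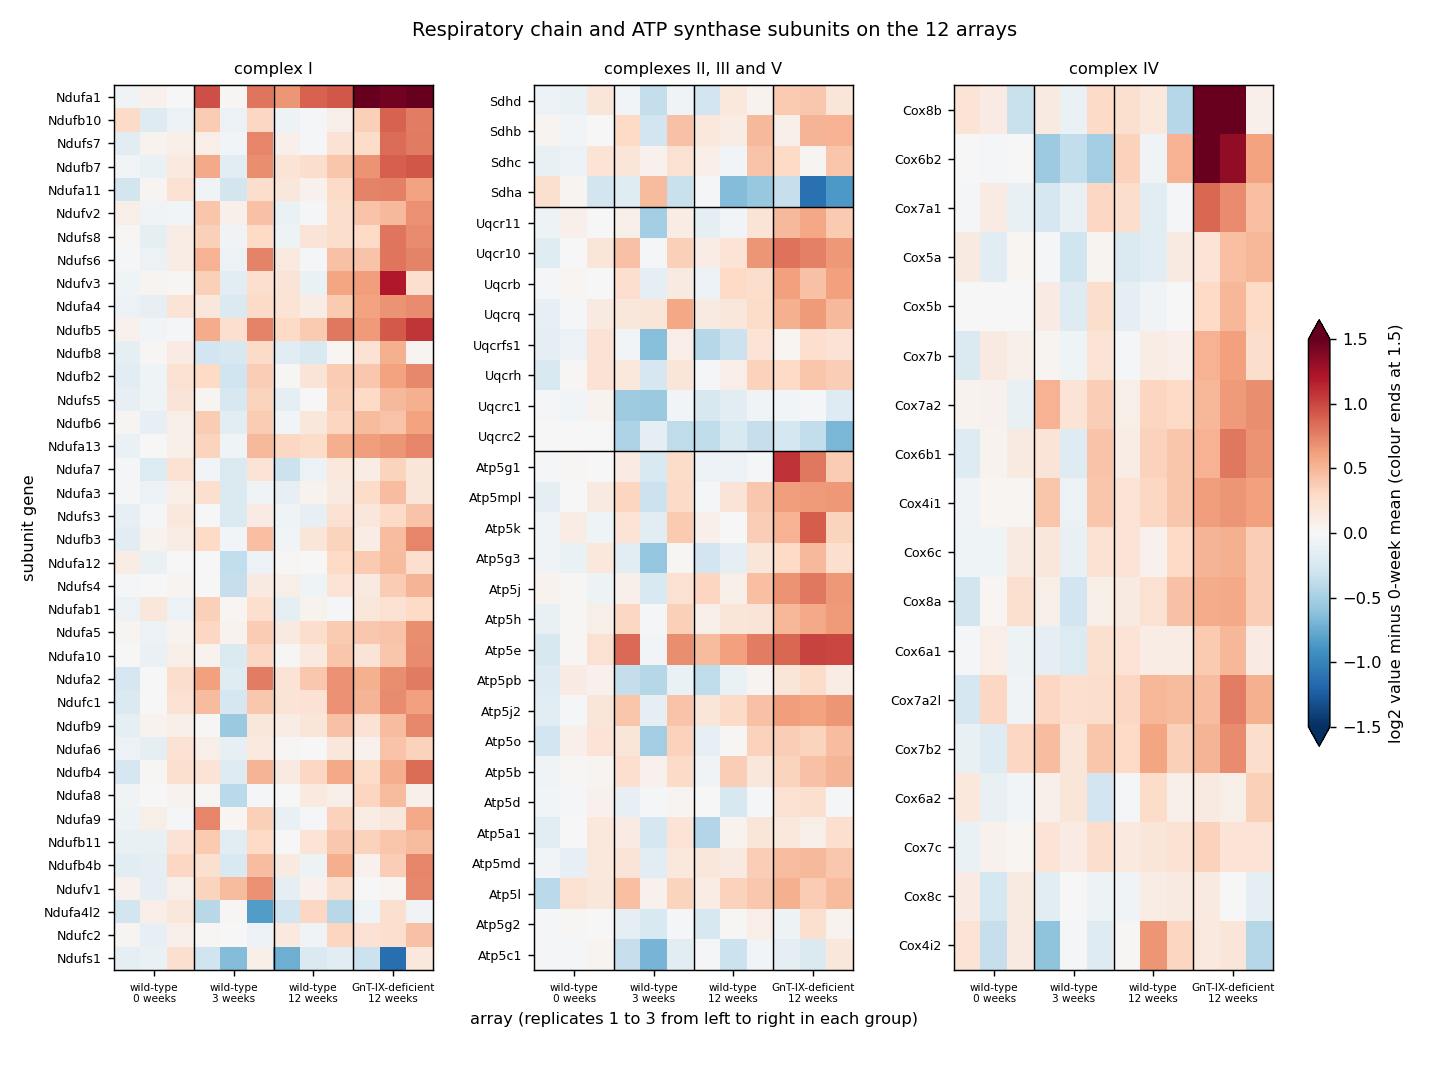
Log2 value minus the 0-week mean for each of the 85 subunit genes (rows) on each of the 12 arrays (columns, grouped by genotype and weeks of cuprizone, replicates 1 to 3 from left to right); colour ends at 1.5 in either direction. Most genes are highest in the 3 GnT-IX-deficient columns, replicate 2 of the 3-week group is pale or blue, and Sdha, Uqcrc2 and Ndufs1 run the other way.

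After 3 weeks of cuprizone no subunit gene of the 85 passed the test, where 3.24% of all genes did and 1.61% did as higher (limma, adjusted p under 0.05, 0 genes of 85; 5 members were higher and 3 lower at an unadjusted p under 0.05, against 8.81% and 7.3% of all genes). The median difference of the 85 genes was 0.08, against -0.02 over all genes, and 53 were higher. Medians by complex were 0.16 for complex I, 0.07 for II, -0.04 for III and 0.06 for both IV and V. The members' 95% confidence intervals, not adjusted for the number of genes, had half-widths of 0.31 to 0.92 with a median of 0.39. The adjusted test is stricter, so with 3 arrays a group it could also miss changes wider than these. In simulated data for this comparison it found 9% of changes of 0.5 and 56.7% of changes of 1. There 67 genes had each of these changes and 116 genes passed, where 632 passed in the data. The adjusted threshold depends on that number, so these shares are only a guide.

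Ndufa1, an accessory subunit of the membrane arm of complex I, had the highest difference at 3 weeks. It stood at 8.00, 8.11 and 8.04 at 0 weeks and at 9.02, 8.07 and 8.85 after 3 weeks (0.60 ± 0.21 SE, adjusted p = 0.158). Replicate 2 of the 3-week group lay inside the 0-week range, and without it Ndufa1 and Atp5e passed the test. Atp5e, the epsilon subunit of the F1 central stalk of ATP synthase, stood at 5.63, 5.88 and 6.09 at 0 weeks and at 6.72, 5.83 and 6.56 after 3 weeks (0.50 ± 0.21 SE, adjusted p = 0.254). Replicate 2 was again the low array. Ndufb5, another membrane-arm accessory subunit, showed 7.56, 7.45 and 7.47 against 8.05, 7.74 and 8.24, with no overlap (0.52 ± 0.19 SE, adjusted p = 0.172). Groups did not overlap, with the 3-week group higher, for 6 members (7.06% of 85, against 10.8% of all genes). They were Ndufb5, Ndufv1, Uqcrq, Cox7a2, Cox7c and Atp5b.

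At the low end after 3 weeks were subunits of several complexes. Uqcrc1, a core subunit of complex III, had a difference of -0.38 ± 0.17 (SE, adjusted p = 0.281) and Atp5c1, the gamma subunit that turns inside F1, -0.40 ± 0.18 (SE, adjusted p = 0.28). Ndufa4l2, a paralogue of Ndufa4 known as a target of hypoxia signalling, had -0.41 ± 0.24 (SE, adjusted p = 0.43). Cox6b2, an isoform of the cytochrome c oxidase subunit 6b known from testis, stood at 7.57, 7.54 and 7.57 at 0 weeks and at 7.02, 7.19 and 7.04 after 3 weeks (-0.48 ± 0.22 SE, adjusted p = 0.307). Its groups did not overlap, and Uqcrc2 and Atp5c1 shared that pattern, which 10.5% of all genes showed. In complex II, Sdhd had the lowest difference (-0.15 ± 0.17 SE) and Sdhc the highest (0.16 ± 0.18 SE).

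After 12 weeks of cuprizone in wild-type mice, again 0 of the 85 genes passed the test, where 2.64% of all genes did and 2.11% did as higher (limma; 6 members were higher and 0 lower at an unadjusted p under 0.05, against 8.21% and 6.85% of all genes). The median difference was 0.15, against -0.01 over all genes, and 64 members were higher. By complex the medians were 0.14 for I, 0.07 for II, 0.07 for III, 0.19 for IV and 0.15 for V. Groups did not overlap, with the 12-week group higher, for 13 members (15.3% of 85, against 10.8% of all genes), and with it lower for 3 (9.95% of all genes). Against 3 weeks, the 12-week median was 0.06 and 0 members passed the test, where 0.082% of all genes did (limma; 2 members were higher and 0 lower at an unadjusted p under 0.05, against 5.69% and 5.7% of all genes).

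Ndufa1 was the member nearest to the threshold at 12 weeks. Its arrays read 8.71, 8.93 and 8.98, all above the 0-week arrays (0.82 ± 0.21 SE, adjusted p = 0.0515), and it passed under several of the alternative settings given at the end. Atp5e followed with 6.34, 6.48 and 6.63 (0.62 ± 0.21 SE, adjusted p = 0.168), also without overlap. The lowest difference belonged to Sdha, the flavoprotein of complex II that binds succinate. It read 7.42, 7.22 and 6.91 at 0 weeks and 7.16, 6.53 and 6.62 at 12 weeks (-0.41 ± 0.26 SE, adjusted p = 0.496), with overlap. Other low members were Ndufs1, the large iron-sulfur subunit of complex I (-0.37 ± 0.28 SE), Uqcrc2 (-0.32 ± 0.16 SE), Atp5pb, the b subunit of the ATP synthase peripheral stalk (-0.15), and Cox5a (-0.08). None of these passed the test.

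Between 3 and 12 weeks the members with the largest differences were isoforms of complex IV. Cox6b2 read 7.02, 7.19 and 7.04 after 3 weeks and 7.90, 7.51 and 8.08 after 12 weeks, with no overlap (0.75 ± 0.22 SE, adjusted p = 0.193). Cox4i2, an isoform of subunit 4 known from lung and from hypoxia, read 6.21, 6.80 and 6.62 after 3 weeks and 6.83, 7.47 and 7.14 after 12 weeks (0.60 ± 0.23 SE, adjusted p = 0.33). Its 0-week values of 7.02, 6.47 and 6.95 overlapped with both. Cox8a was the third member, and the last, without overlap in this direction (3.53% of 85, against 7.83% of all genes). Ndufv1, the subunit that binds NADH, ran the other way, with 8.60, 8.74 and 8.96 after 3 weeks and 8.14, 8.34 and 8.53 after 12 weeks (-0.43 ± 0.20 SE, adjusted p = 0.442). It was the 1 member without overlap in that direction (8.1% of all genes).

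In GnT-IX-deficient mice after 12 weeks, 80 of the 85 genes had a higher mean than in wild-type mice at 12 weeks, with a median difference of 0.29, against 47.5% of all genes and a median of -0.01. No single member passed the test (limma, 0 of 85, where 0.0256% of all genes did and 0.0205% did as higher). At an unadjusted p under 0.05, 26 members were higher, against 3.65% of all genes, and 0 were lower, against 3.34%. Groups did not overlap, with the deficient arrays higher, for 37 members (43.5% of 85, against 5.27% of all genes) and in the other direction for 0 (5.57% of all genes). These members were 15 of complex I, 1 of complex II, 3 of complex III, 9 of complex IV and 9 of complex V. The subunits share arrays, and no test was made of the group of genes as a whole.

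**Figure D3:**
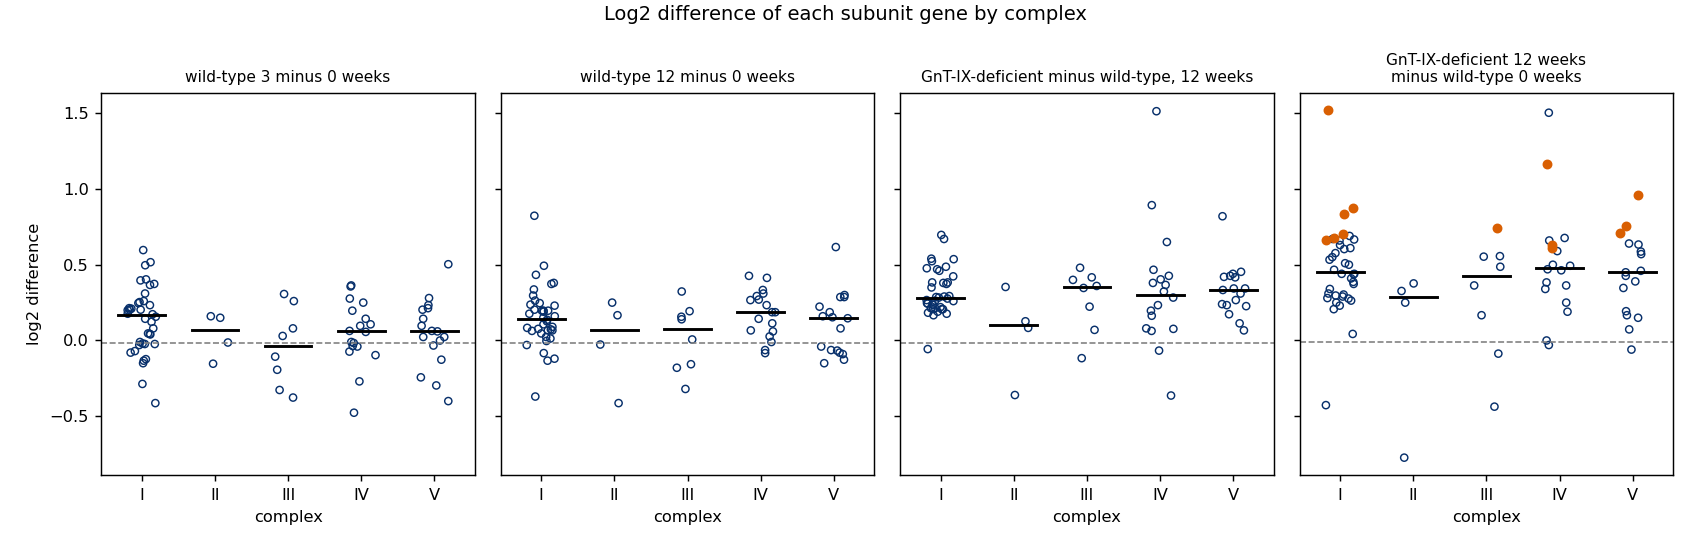
Log2 difference of each subunit gene in 4 comparisons, by complex (circles are genes; filled circles have an adjusted p under 0.05; black bars are medians of the complex; the dashed line is the median of all genes). The bars lie near the dashed line at 3 weeks and furthest above it for GnT-IX-deficient mice at 12 weeks against untreated wild-type mice, the one comparison with filled circles.

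By complex the genotype medians were 0.28 for I, 0.11 for II, 0.35 for III, 0.30 for IV and 0.33 for V. In complex I, 37 of 38 genes were higher. The 6 measured core subunits, which are conserved from bacteria, had a median of 0.38, and the 32 accessory subunits one of 0.27 with all 32 higher. Ndufa1 was at the top with 9.67, 9.50 and 9.54 on the deficient arrays, all above the wild-type 12-week arrays (0.70 ± 0.21 SE, adjusted p = 0.468). Ndufb10, a membrane-arm accessory subunit, read 7.63, 7.68 and 7.80 in wild-type and 8.06, 8.59 and 8.47 in deficient mice (0.67 ± 0.19 SE, adjusted p = 0.453). Ndufs1 was the one lower gene (-0.06 ± 0.28 SE), and its deficient arrays were far apart, at 5.70, 4.89 and 6.18.

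Among the other core subunits of complex I, Ndufs7 and Ndufs8, which hold iron-sulfur clusters on the way to ubiquinone, had differences of 0.54 ± 0.21 (SE, adjusted p = 0.633) and 0.48 ± 0.19 (SE, adjusted p = 0.633). Ndufs8 read 7.72, 7.99 and 8.06 in wild-type mice at 12 weeks and 8.09, 8.60 and 8.51 in deficient mice. Ndufv2, the partner of Ndufv1 in the NADH-binding unit, read 7.27, 7.34 and 7.63 against 7.80, 7.85 and 8.05 (0.49 ± 0.17 SE, adjusted p = 0.563). All 3 were without overlap. Ndufv1 itself had 0.18 ± 0.20 (SE) and Ndufs3 0.28 ± 0.17 (SE), both with overlap. Accessory subunits reached from 0.17 ± 0.16 (SE) for Ndufc2 to the value of Ndufa1, and Ndufab1, the mitochondrial acyl carrier protein, had 0.26 ± 0.16 (SE) without overlap.

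In complex II, Sdhd, a membrane anchor, read 6.71, 7.15 and 7.05 in wild-type mice at 12 weeks and 7.39, 7.40 and 7.18 in deficient mice (0.35 ± 0.17 SE, adjusted p = 0.727). Sdhb, the iron-sulfur subunit, and Sdhc, the other anchor, had differences of 0.13 ± 0.20 (SE) and 0.08 ± 0.18 (SE). Sdha was lower, at 6.84, 6.07 and 6.32 (-0.36 ± 0.26 SE, adjusted p = 0.799), with overlap. In complex III, 7 of 8 genes were higher. Uqcr11, a small subunit, had the highest difference (0.48, adjusted p = 0.627), and Uqcrb, which lies at the quinone site, read 8.69, 9.08 and 9.04 in wild-type and 9.39, 9.22 and 9.40 in deficient mice (0.40 ± 0.17 SE, adjusted p = 0.661). Uqcrc2, the other core subunit, was the exception (-0.12 ± 0.16 SE). Uqcrfs1, the Rieske iron-sulfur protein, read 7.21, 7.31 and 7.84 in wild-type and 7.66, 7.89 and 7.85 in deficient mice (0.35 ± 0.22 SE), with overlap, and the hinge protein Uqcrh had 0.22 ± 0.18 (SE).

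In complex IV, 16 of 18 genes were higher in the deficient mice. Among the isoforms present in most tissues, Cox4i1 read 10.42, 10.52 and 10.63 in wild-type and 10.84, 10.87 and 10.83 in deficient mice (0.32 ± 0.17 SE, adjusted p = 0.734), and Cox5a, which sits beside subunit 4, read 8.09, 8.14 and 8.45 against 8.51, 8.76 and 8.81 (0.47 ± 0.17 SE, adjusted p = 0.622). Both were without overlap. Cox5b, which binds zinc, read 10.22, 10.30 and 10.36 against 10.66, 10.85 and 10.65 (0.43 ± 0.16 SE, adjusted p = 0.625), again without overlap. Cox7c had the smallest difference of the common subunits, 0.06 ± 0.15 (SE). The widest differences belonged to isoforms with restricted expression. Cox8b, the heart and muscle isoform of subunit 8, read 4.39, 4.31 and 3.73 in wild-type and 6.71, 6.03 and 4.23 in deficient mice (1.51 ± 0.43 SE, adjusted p = 0.442). Deficient replicates 1 and 2 were high and replicate 3 lay inside the wild-type range. Cox6b2 read 9.12, 8.89 and 8.16 (0.89 ± 0.22 SE, adjusted p = 0.324), with the same order of arrays and no overlap.

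In complex V all 17 genes were higher in the deficient mice. Atp5g1, one of 3 genes for the c subunit that forms the rotating ring, read 7.76, 7.77 and 7.84 in wild-type and 8.94, 8.65 and 8.24 in deficient mice (0.82 ± 0.19 SE, adjusted p = 0.254). Again replicate 3 was the lowest deficient array. Of the other c-subunit genes, Atp5g3 had a difference of 0.43 (adjusted p = 0.69) and Atp5g2 one of 0.11. The catalytic beta subunit Atp5b had 0.27 ± 0.16 (SE) and the alpha subunit Atp5a1 0.23 ± 0.19 (SE), and Atp5c1 was lowest with 0.07 ± 0.18 (SE). Subunits of the peripheral stalk were higher to a like extent, with 0.42 ± 0.16 (SE) for Atp5h, 0.42 ± 0.17 (SE) for Atp5j, 0.34 ± 0.17 (SE) for Atp5pb and 0.31 ± 0.22 (SE) for Atp5o, which joins the stalk to F1. Atp5h read 10.04, 10.14 and 10.15 in wild-type and 10.46, 10.52 and 10.60 in deficient mice. Of the small membrane subunits, Atp5mpl had 0.45 ± 0.19 (SE) and Atp5k, which helps ATP synthase to form dimers, 0.44 ± 0.20 (SE). None of these passed the test.

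**Figure D4:**
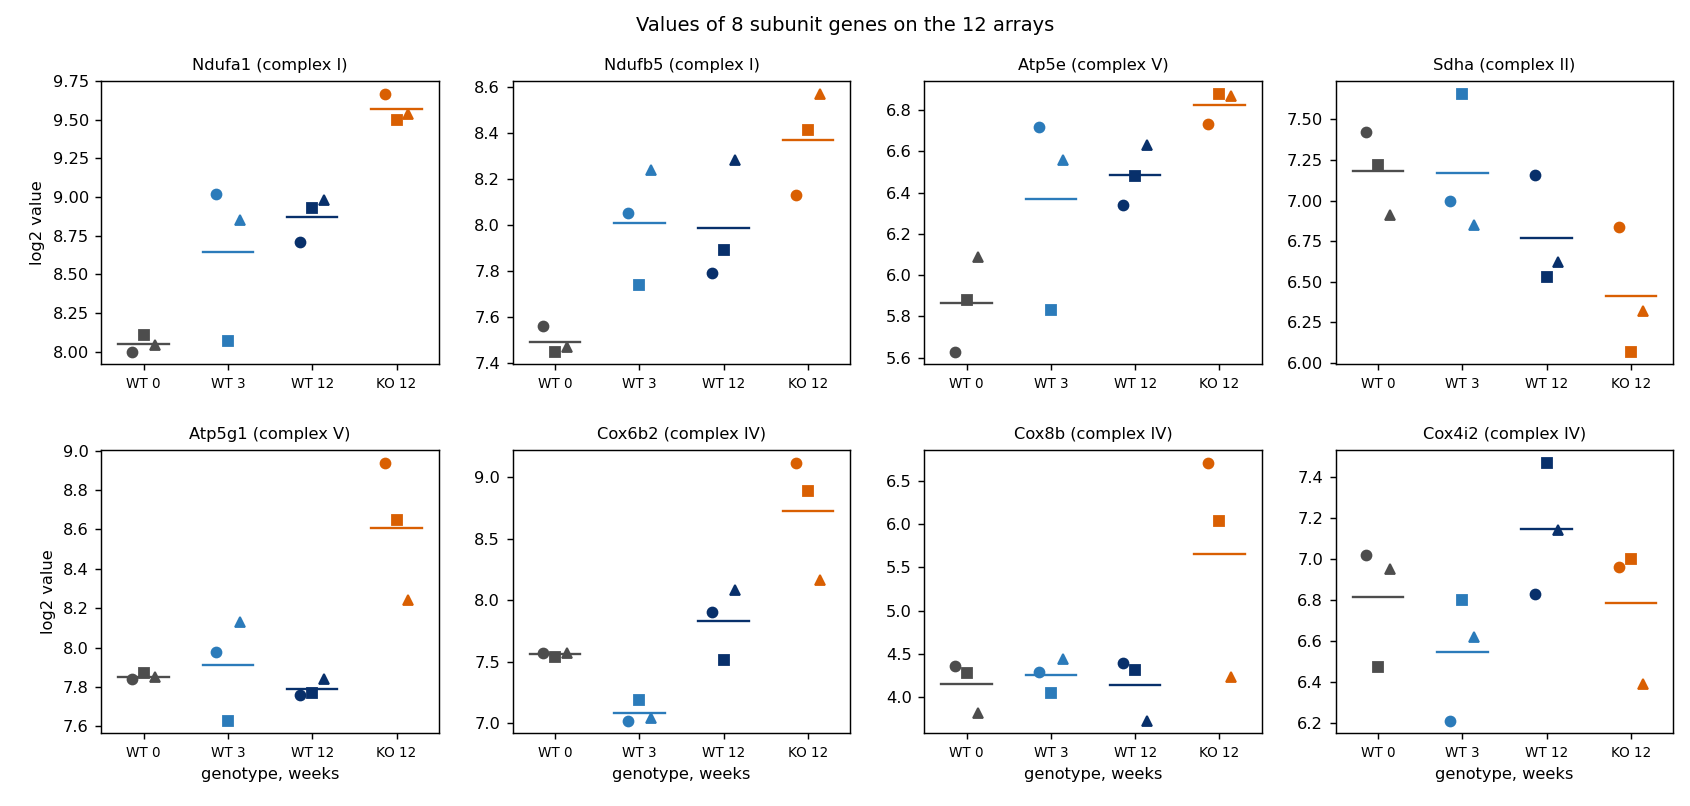
Log2 values of 8 subunit genes on the 12 arrays (WT, wild-type; KO, GnT-IX-deficient; numbers are weeks of cuprizone; circle, square and triangle are replicates 1, 2 and 3; bars are group means; each axis has its own range). Ndufa1 and Atp5e have close deficient arrays, whereas Atp5g1, Cox6b2 and Cox8b are high in deficient replicates 1 and 2 and lower in replicate 3.

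Markers of other cell types also differed between the arrays. The 9 measured choroid plexus markers averaged 4.28 to 5.78 on the wild-type arrays and 7.90, 6.85 and 5.32 on deficient replicates 1, 2 and 3, the order in which Cox8b, Cox6b2 and Atp5g1 stood. Ttr, the secreted carrier protein that marks choroid plexus, read 12.47, 12.09 and 9.56 on the deficient arrays and from 4.42 to 10.26 on the wild-type ones. Ependymal markers averaged 6.04 to 6.76 on the wild-type arrays and 6.65, 7.74 and 7.32 on the deficient ones. The mean of all 85 subunit genes lay close together on the deficient arrays, at 0.40, 0.49 and 0.43, so its order carries little weight. Such orders of 3 arrays were not tested. Against wild-type at 12 weeks, 9 of 9 choroid plexus and 9 of 9 ependymal markers were higher, with medians of 1.58 and 0.95, and 0 of each passed the test. Microglia and macrophage markers were lower, with 0 of 14 higher and a median of -0.61. Astrocyte markers were also lower, with 1 of 10 higher and a median of -0.17. Of neuron markers 7 of 10 were higher, with a median of 0.28, and of oligodendrocyte markers 7 of 10, with a median of 0.21. With deficient replicate 3 as the one deficient array, a setting chosen after seeing the data, 77 of 85 subunit genes were higher, with a median of 0.34. Ependymal markers on that array, at 7.32, still lay above all wild-type arrays. Its choroid plexus markers, at 5.32, lay above the wild-type arrays at 12 weeks (4.32 to 5.17). The setting thus does not take such cells out. Without replicate 3 the median was 0.30 and 3 members passed the test, namely Atp5g1, Cox6b2 and Cox8b. The part of choroid plexus, ependymal or other cells in the difference was not tested.

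**Figure D5:**
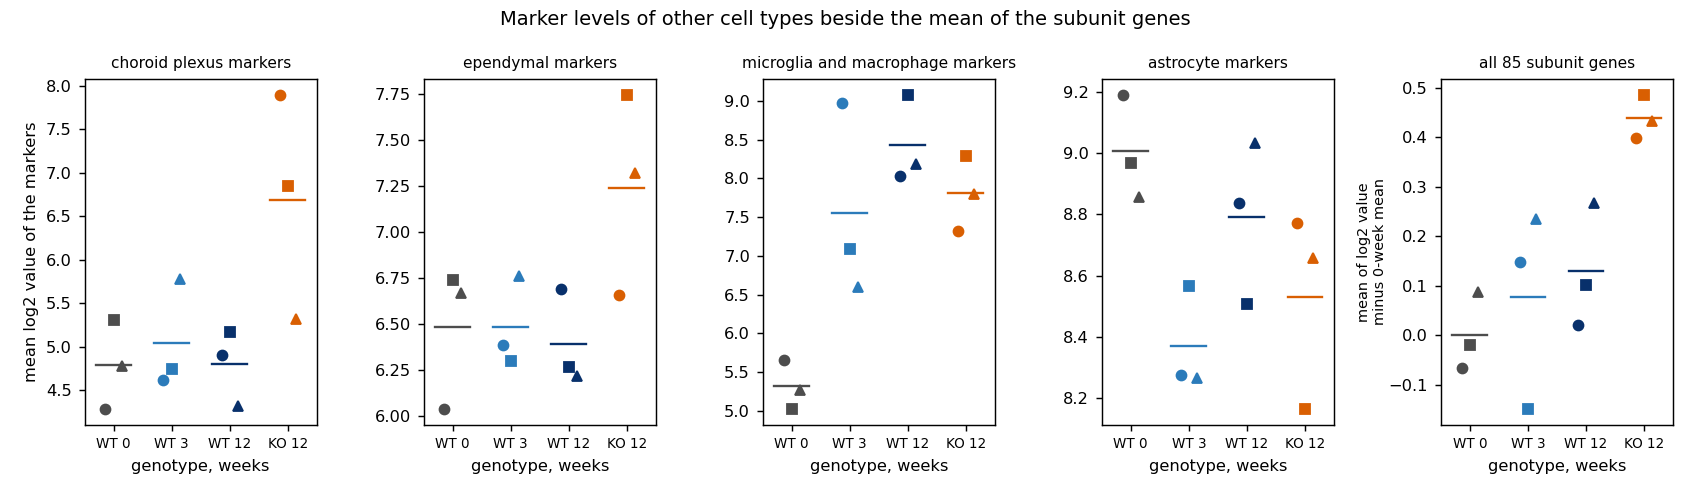
Mean log2 value of the markers of 4 cell types on each array, beside the mean of the 85 subunit genes relative to 0 weeks (WT, wild-type; KO, GnT-IX-deficient; numbers are weeks of cuprizone; circle, square and triangle are replicates 1, 2 and 3; bars are group means; each axis has its own range). Microglia and macrophage markers lie between 5.02 and 5.65 at 0 weeks and from 6.59 to 9.08 in the treated groups, and choroid plexus markers are highest on deficient replicate 1, at 7.90.

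Set against untreated wild-type mice, GnT-IX-deficient mice at 12 weeks gave the one comparison in which subunit genes passed the test. There 13 of 85 rose and 0 fell, where 4.11% of all genes passed and 2.41% passed as higher. The count rested on single arrays: it was 1, Ndufa1, without 0-week replicate 1, without 0-week replicate 2 or without deficient replicate 2, 4 without deficient replicate 3 and 8 without 0-week replicate 3. Of the 13, Ndufa1, Ndufa4, Ndufa11, Ndufa13, Ndufb5 and Ndufb7 belong to complex I and Uqcr10 to complex III. The others were Cox4i1, Cox6b2 and Cox7a2 of complex IV, and Atp5e, Atp5g1 and Atp5j of complex V. In all, 78 members were higher, with a median of 0.45 against -0.01 over all genes. Medians by complex were 0.45 for I, 0.29 for II, 0.43 for III, 0.48 for IV and 0.45 for V. Groups did not overlap, with the deficient arrays higher, for 60 members (70.6% of 85, against 12.0% of all genes). This comparison shares its deficient arrays with the genotype comparison and its 0-week arrays with the time comparisons, and it joins the differences of both. Cell type markers moved in it too. Of 14 microglia and macrophage markers 12 rose, with a median of 2.81, and of 10 endothelial markers 4 rose, with a median of 0.96. Of 10 astrocyte markers 4 fell and Gfap rose, with a median of -0.69. Of 9 choroid plexus markers Folr1 and Otx2 rose, and of 9 ependymal markers Pifo and Rsph1. Endothelial markers averaged 5.52 to 5.70 at 0 weeks and 7.14, 6.67 and 6.19 on the deficient arrays. The part of these cells in the rise of the subunit genes was not tested.

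Ndufa1 rose by 1.52 ± 0.21 (SE, adjusted p = 0.00315), a 2.87-fold difference and the largest of the 85. Its 3 deficient arrays, at 9.50 to 9.67, lay above the 12-week wild-type arrays at 8.71 to 8.98, and those lay above the 0-week arrays at 8.00 to 8.11. It was the one member that passed this test with each of the 6 arrays compared left out in turn. Ndufb5 rose by 0.88 ± 0.19 (SE, adjusted p = 0.0208), with 8.13, 8.41 and 8.57 on the deficient arrays. Ndufb7, which faces the intermembrane space, rose by 0.83 ± 0.21 (SE, adjusted p = 0.0372), from 8.45, 8.39 and 8.64 to 9.17, 9.39 and 9.42. Ndufa11 and Ndufa13, a pair of accessory subunits, rose by 0.70 ± 0.18 (SE, adjusted p = 0.0441) and 0.67 ± 0.17 (SE, adjusted p = 0.0409). Ndufa4 rose by 0.66 ± 0.17 (SE, adjusted p = 0.0467), and although it counts here with complex I by its name, its protein is known as a subunit of complex IV.

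Atp5e rose by 0.96 ± 0.21 (SE, adjusted p = 0.0249), to 6.73, 6.88 and 6.87. Atp5j, coupling factor 6 of the peripheral stalk, rose by 0.71 ± 0.17 (SE, adjusted p = 0.0309), from 8.52, 8.48 and 8.39 to 9.14, 9.26 and 9.11. Both had deficient arrays close together and apart from the 0-week ones. Atp5g1 rose by 0.76 ± 0.19 (SE, adjusted p = 0.0392), and its wild-type mean at 12 weeks, 7.79 ± 0.04 (SD, n = 3), lay beside that at 0 weeks, 7.85 ± 0.02 (SD, n = 3). Uqcr10, a small subunit of complex III, rose by 0.74 ± 0.19 (SE, adjusted p = 0.0415), from 9.63, 9.81 and 9.99 to 10.62, 10.57 and 10.46. In complex IV, Cox4i1 rose by 0.63 ± 0.17 (SE, adjusted p = 0.046), Cox7a2 by 0.61 ± 0.16 (SE, adjusted p = 0.0423) and Cox6b2 by 1.16 ± 0.22 (SE, adjusted p = 0.0131).

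Just past the threshold on the other side were Atp5h (0.57 ± 0.16 SE, adjusted p = 0.0538), Cox7a1 (0.68 ± 0.19 SE, adjusted p = 0.057) and Cox6b1 (adjusted p = 0.0575). Cox8b, with a 2.83-fold difference, had an adjusted p of 0.0621 and a deficient replicate 3 inside the 0-week range. The members that were lower than in untreated mice were few, and none passed the test. Sdha had -0.77 ± 0.26 (SE, adjusted p = 0.0946) and Uqcrc2 -0.44 ± 0.16 (SE, adjusted p = 0.134), both without overlap between the groups. They were the 2 of 85 members lower without overlap, a pattern that 13.1% of all genes showed. Uqcrc2 read 7.23, 7.22 and 7.21 at 0 weeks and 6.96, 6.85 and 6.54 on the deficient arrays. Ndufs1 had -0.43 ± 0.28 (SE, adjusted p = 0.413), Uqcrc1 -0.09 ± 0.17 (SE), Atp5c1 -0.06 ± 0.18 (SE) and Cox4i2 -0.03 ± 0.23 (SE). A moderated F test over the 4 groups called 3 members, namely Ndufa1 (adjusted p = 0.00735), Cox6b2 (adjusted p = 0.00576) and Atp5g1 (adjusted p = 0.0473), where 4.22% of all genes passed.

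Several subunits exist as isoforms encoded by separate genes, whose values are set side by side here. For subunit 6b, Cox6b2 was described above, and Cox6b1, the isoform present in most tissues, went from 7.61 ± 0.17 through 7.76 ± 0.31 and 7.91 ± 0.16 to 8.27 ± 0.14 (SD, n = 3 in each group; 0.66 ± 0.19 SE for deficient mice against 0 weeks, adjusted p = 0.0575). For subunit 7a, Cox7a1, known from heart and skeletal muscle, lay at 5.97 ± 0.12, 5.95 ± 0.29 and 5.99 ± 0.21 in the wild-type groups and at 6.64 ± 0.21 in deficient mice (SD, n = 3; 0.65 ± 0.19 SE between genotypes, adjusted p = 0.453), with 6.83, 6.68 and 6.42 on the single arrays. Cox7a2l, which takes part in joining complexes III and IV, had a genotype difference of 0.16 ± 0.17 (SE). The muscle isoform Cox6a2 (0.08 ± 0.17 SE), the testis isoforms Cox7b2 (0.08 ± 0.18 SE) and Cox8c (-0.07), and Ndufa4l2 (0.18 ± 0.24 SE) had genotype differences near 0. Cox7b2 read only 2.88 to 3.78, among the dim genes of every group, where a change could be missed. Cox4i2 had -0.36 ± 0.23 (SE, adjusted p = 0.782) where Cox4i1 had 0.32. No test of one isoform against the other was made. Ndufb4 and Ndufb4b are near-identical copies, and their probes may read both.

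Promoter windows from RefSeq (GRCm38.p6) were at hand for 70 of the 85 genes and cover 250 bases before and 50 after the start. They were searched on both strands for the core motifs of factors known to drive respiratory genes: NRF1 (GCGCA, any base, GCGC), the ETS factors such as GABPA (CCGGAAG) and YY1 (AANATGGCG). An NRF1 motif stood in 16 windows (22.9%, against 7.05% of the 15691 windows of measured genes), an ETS motif in 16 (22.9%, against 12.2%) and a YY1 motif in 8 (11.4%, against 3.47%). Of the 12 genes with a window that passed the test in deficient against untreated mice, Ndufa11 held an NRF1 motif, and Atp5e and Ndufb7 held an ETS motif. The 250 bases before the start are shown for these 3, for Ndufa1, which had the largest difference and none of the motifs, and for the isoform pair Cox6b1 and Cox6b2, of which the former holds an ETS motif and the latter none. They run 5′ to 3′ along the gene, with the motif in capitals, and the ETS motif of Atp5e and Cox6b1 is on the opposite strand and so reads CTTCCGG. The Ndufa1 window is chrX:37191239-37191488 on the minus strand, that of Ndufa11 chr17:56717512-56717761 on the plus strand, of Ndufb7 chr8:83566508-83566757 on the plus strand and of Atp5e chr2:174464102-174464351 on the minus strand. The Cox6b1 window is chr7:30626115-30626364 on the minus strand and that of Cox6b2 chr7:4753095-4753344 on the minus strand.
Ndufa1: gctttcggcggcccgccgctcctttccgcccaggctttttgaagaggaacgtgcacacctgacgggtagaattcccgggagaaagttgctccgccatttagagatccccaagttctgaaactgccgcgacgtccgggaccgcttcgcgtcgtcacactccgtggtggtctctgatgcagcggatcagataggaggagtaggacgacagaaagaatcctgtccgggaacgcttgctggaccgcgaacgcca
Ndufa11: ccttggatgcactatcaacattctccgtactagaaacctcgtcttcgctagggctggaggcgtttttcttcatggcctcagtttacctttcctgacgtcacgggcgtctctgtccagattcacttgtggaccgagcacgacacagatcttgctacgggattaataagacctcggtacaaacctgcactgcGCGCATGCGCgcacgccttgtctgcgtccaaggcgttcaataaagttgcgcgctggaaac
Ndufb7: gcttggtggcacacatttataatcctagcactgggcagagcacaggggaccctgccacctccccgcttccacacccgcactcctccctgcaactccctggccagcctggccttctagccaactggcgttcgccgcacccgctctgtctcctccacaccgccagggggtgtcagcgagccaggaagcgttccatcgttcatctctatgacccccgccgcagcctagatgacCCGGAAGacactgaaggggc
Atp5e: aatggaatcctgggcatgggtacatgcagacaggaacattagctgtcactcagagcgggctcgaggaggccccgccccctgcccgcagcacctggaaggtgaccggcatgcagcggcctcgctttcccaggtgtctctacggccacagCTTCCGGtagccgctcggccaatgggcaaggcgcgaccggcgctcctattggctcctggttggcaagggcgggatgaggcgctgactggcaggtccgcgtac
Cox6b1: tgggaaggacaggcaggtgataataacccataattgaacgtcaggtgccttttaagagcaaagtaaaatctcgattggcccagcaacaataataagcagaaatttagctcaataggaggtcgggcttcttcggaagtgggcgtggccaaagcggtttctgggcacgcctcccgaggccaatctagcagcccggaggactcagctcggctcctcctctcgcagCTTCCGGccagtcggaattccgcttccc
Cox6b2: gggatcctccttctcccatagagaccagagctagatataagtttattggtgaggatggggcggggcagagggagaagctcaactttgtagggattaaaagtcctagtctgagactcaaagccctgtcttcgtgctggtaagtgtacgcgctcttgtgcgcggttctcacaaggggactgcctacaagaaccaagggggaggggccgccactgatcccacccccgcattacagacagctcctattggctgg

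For other genes of the pathway the counts past the test are set against the share over all genes, which was 3.24% and 2.64% at 3 and 12 weeks against 0, 0.082% at 12 against 3 weeks, 0.0256% between genotypes and 4.11% for deficient mice against 0 weeks. Of 42 measured assembly factors, which build the complexes, 0 passed the test in the wild-type comparisons and between genotypes. In deficient mice against 0 weeks 1 of them rose, Ndufaf8 (1.05 ± 0.25 SE, adjusted p = 0.0301), a complex I assembly factor. Their median genotype difference was 0.20, with 29 of 42 higher. The 7 measured genes of copper delivery to cytochrome c oxidase, the 15 of electron carriers and coenzyme Q synthesis, the 7 carriers of nucleotides and phosphate and the 17 of pyruvate dehydrogenase and the citric acid cycle had 0 genes past the test in all 5 comparisons. In lists of this size such counts are near the share over all genes. Their median genotype differences were 0.01, 0.04, 0.06 and 0.07, and Sdha, which belongs to the cycle as well as to the chain, was counted with the chain. Cyc1, cytochrome c1 of complex III, lies outside the symbol rule and was counted with the electron carriers. It had a genotype difference of 0.43 ± 0.20 (SE, limma adjusted p = 0.715). In the copper delivery list 5 of 7 genes were higher after 3 weeks, with a median of 0.13. Cox17 had a difference of 0.75 ± 0.20 (SE, limma adjusted p = 0.0576) and Cox11 one of -0.64 ± 0.17 (SE, limma adjusted p = 0.0561). Neither overlapped with 0 weeks, patterns that 10.8% (higher) and 10.5% (lower) of all genes showed.

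Among 15 measured regulators of mitochondrial biogenesis, 11 were higher after 3 weeks, with a median of 0.26. Against that direction, Ppargc1a, the coactivator PGC-1alpha, fell by 0.85 ± 0.19 (SE, adjusted p = 0.0265), the 1 regulator past the test. It read 10.41, 10.34 and 10.58 at 0 weeks, 9.41, 9.75 and 9.63 after 3 weeks and 10.06, 9.80 and 10.28 after 12 weeks. On the deficient arrays it read 10.45, 10.29 and 9.85 (0.15 ± 0.19 SE between genotypes). In deficient mice against 0 weeks, 7 of the 15 regulators were higher, with a median of -0.05. There Nrf1, the nuclear respiratory factor, fell by 0.75 ± 0.18 (SE, adjusted p = 0.0358), from 9.37, 9.11 and 8.93 to 8.65, 8.35 and 8.17. Of 12 mitochondrial chaperones and proteases, 9 were higher after 3 weeks, with a median of 0.20. Hspa9, the matrix chaperone mortalin, rose by 1.23 ± 0.30 (SE, adjusted p = 0.0358). In deficient mice against 0 weeks, 6 of the 12 were higher, with a median of -0.05. Trap1 and Spg7, a chaperone and a protease subunit, fell by 0.66 ± 0.18 (SE, adjusted p = 0.048) and 0.83 ± 0.19 (SE, adjusted p = 0.0248).

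The 55 cytosolic ribosomal protein genes, another set of small and abundant nuclear transcripts, stood higher in all treated groups. Relative to 0 weeks they averaged 0.95, 0.40 and 0.69 after 3 weeks, 0.72, 0.99 and 0.85 after 12 weeks, and 0.71, 0.96 and 1.02 on the deficient arrays. In wild-type mice 23 of 55 rose after 3 weeks and 40 of 55 after 12 weeks, where 0 subunit genes did and 1.61% and 2.11% of all genes passed as higher. Between genotypes their median was 0.05, with 40 of 55 higher and 0 past the test, against 0.29 and 80 of 85 for the subunit genes. The difference between the sets was not tested.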

How the data were processed

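RNA of GLAST-selected white matter cells was measured on 12 Affymetrix arrays, 3 for each of 4 groups taken from the sample titles. Per the submitters' processing notes, the authors summarised the arrays with RMA in Affymetrix Expression Console 1.4, which yields the log2 values deposited. RMA gives the arrays a like distribution and compresses differences of dim transcripts. Of 22206 clusters, 19572 had 1 symbol and 2634 are unnamed here. For 55 genes with several clusters, none of them a member, the brightest was used. No filter on dim genes was set.

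All 19505 genes entered a linear model with 1 mean per group and 8 residual degrees of freedom (R 4.3.3, limma 3.58.1, functions lmFit and eBayes), tested on both sides, with Benjamini-Hochberg adjustment over all genes and a threshold of 0.05. Values after ± are standard errors (SE) of that fit or SDs over 3 arrays. The same code was tested on simulated data. There a log2 change of 0.5 was found for 3% to 9% of genes and one of 1 for 56.7% to 68.7%, depending on the comparison. Few genes were changed in the simulation, and 116 to 123 passed. In the data 632 passed at 3 weeks and 5 between genotypes, so the shares found may differ there. Named genes were those past the threshold, the extremes of each complex and comparison, isoforms and the complex II genes. The members and all gene lists were chosen with earlier results of these data known. Sequences came from RefSeq, GRCm38.p6. Alternatives covered normalization, centring, a filter on dim genes, cluster choice, variance model, weights, arrays fitted, the replicate number as a block and each array left out. Figures were drawn with matplotlib 3.10.9.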

Additional observations from a re-analysis of the deposited data

How the results depend on the processing

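No alternative turned the direction of a gene past the test, but the number of calls moved. Leaving out each array in turn, the number of subunit genes past the test ran from 0 to 2 at 3 weeks against 0 (2 without replicate 2 of the 3-week group, namely Atp5e and Ndufa1), was 0 for both 12-week wild-type comparisons, ran from 0 to 3 between genotypes (3 without deficient replicate 3), from 1 to 11 for deficient mice against 0 weeks (1 without 0-week replicate 1 or 2 or without deficient replicate 2, 8 without 0-week replicate 3, 4 without deficient replicate 3, and 11 without deficient replicate 1, of which 10 higher and Sdha lower) and from 2 to 6 in the F test. Ndufa1 alone passed at 12 weeks against 0 (1 gene) with the dimmest 30% of genes left out, with a trended and robust variance, with array weights and with only the arrays compared. Deficient mice against 0 weeks gave 17 genes without dim genes or with array weights, 15 with a trended and robust variance, 6 with median centring, 8 with only the arrays compared and 1 with deficient replicate 3 as the only deficient array (chosen after seeing the data). The F test gave 5 with a second quantile normalization, without dim genes, with a trended variance or with array weights, and 1 with deficient replicate 3 alone (its group then has 1 array, assumed to vary like the others). With the replicate number as a block, the counts were 12 for deficient mice against 0 weeks, 2 in the F test and 0 elsewhere. Whether the numbers pair the arrays is not known. Over 18 same-numbered pairs the correlation of deviations ran from -0.28 to 0.22, with 6 above 0.1. Those of replicate 3 were all positive, from 0.051 to 0.186. Deviations from means of 3 arrays cannot exclude a pairing. Leave-one-out medians of complexes I, II, III, IV and V ran from 0.019 to 0.33, 0.045 to 0.10, -0.13 to 0.13, -0.0067 to 0.16 and -0.048 to 0.20 at 3 weeks, from 0.053 to 0.20, -0.017 to 0.16, -0.028 to 0.15, 0.15 to 0.19 and 0.037 to 0.18 at 12 weeks against 0, and from -0.12 to 0.11, -0.08 to 0.11, -0.058 to 0.18, -0.016 to 0.14 and -0.11 to 0.18 at 12 against 3 weeks (single arrays thus turned the sign for III, IV and V at 3 weeks, for II and III at 12 weeks and for all 5 at 12 against 3 weeks). They ran from 0.22 to 0.37 (I), 0.02 to 0.23 (II), 0.25 to 0.43 (III), 0.27 to 0.36 (IV) and 0.27 to 0.42 (V) between genotypes, and, for deficient mice against 0 weeks, from 0.40 to 0.565 (I), 0.24 to 0.37 (II), 0.35 to 0.48 (III), 0.415 to 0.56 (IV) and 0.40 to 0.53 (V). Median centring gave 0.13 for complex IV at 12 weeks. Deficient replicate 3 alone gave 0.46 (I) and 0.23 (II) against wild-type at 12 weeks and 0.65 (I) and 0.36 (IV) against 0 weeks. The causes were not tested. With 3 arrays a group, single-gene changes within the intervals given above, and many wider ones, could be missed by the adjusted test.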
